A study of Mus musculus with 19 samples.

Results

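The sensory TRP channels are 9 genes, Trpv1, Trpv2, Trpv4, Trpa1, Trpm8, Trpm3, Trpm2, Trpc1 and Trpc5, taken by name from the 36682 annotated genes with counts. All 9 passed the filter on low counts and were among the 22778 genes tested. Their transcripts were measured by bulk RNA sequencing of pooled L3 to L5 dorsal root ganglia of 19 male mice, all homozygous for the MaFIA transgene (macrophage Fas-induced apoptosis). There were 5 mice with destabilization of the medial meniscus (DMM) and AP20187, 5 with DMM and vehicle, 4 naive with AP20187 and 5 naive with vehicle. DMM is knee surgery that induces osteoarthritis, done 8 weeks before the injections, and naive mice were age-matched and had no operation. AP20187, a dimerizing drug that activates the Fas fusion protein of the transgene, or vehicle was injected into the peritoneum on 5 consecutive days.

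As background, the MaFIA transgene is driven by the Csf1r promoter, so the drug acts on macrophages and on other myeloid cells that use this promoter, in the whole animal. All 4 groups carry it, and no group without the transgene and no sham-operated group was analysed here. The labels number the samples, which are called mice here, and p-values measure the spread between these samples.

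TRP channels are cation channels in which heat, cold, plant irritants, products of tissue damage or stretch open a pore for calcium and sodium. In the ganglia, Trpv1, Trpa1, Trpm3 and Trpm8 are channels of sensory neurons that detect noxious heat, reactive chemicals and cold, and nociceptors are the neurons that carry most of Trpv1 and Trpa1. Trpv2, Trpv4, Trpm2 and Trpc1 are also used by other cells, among them macrophages, endothelium or glia, and Trpc5 is a canonical TRP channel of neurons.

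Libraries held 60984830 to 74691396 counts, and levels are given as CPM, library-scaled counts with TMM factors. Ganglion identity was checked on 9 sensory neuron genes, whose summed level was 339 to 5240 CPM in the 19 libraries. The 15 pan-neuronal genes summed to 5910 to 10600 CPM in naive mice with vehicle, 2020 to 7640 in naive mice with AP20187, 4470 to 9130 in DMM mice with vehicle and 1840 to 5220 in DMM mice with AP20187. The 12 genes of granulocytes and their precursors summed to 784 to 2140 CPM in naive mice with vehicle, 8000 to 27400 in naive mice with AP20187, 386 to 7340 in DMM mice with vehicle and 16800 to 29100 in DMM mice with AP20187. The 12 macrophage genes summed to 385 to 1280, 1530 to 2980, 420 to 3450 and 1870 to 4110 CPM in the same order of groups. Lyz2, a lysozyme gene that granulocytes also use, made up most of this sum, with means of 1040 CPM in DMM mice with vehicle and 2250 with AP20187, and 491 and 1620 in naive mice. With AP20187, 1 of the 12 macrophage genes was called higher in DMM mice (Mrc1, 1.45 on the log2 scale, adjusted p 0.023), against 11.3% of all genes, and 4 in naive mice, against 8.61%. The list's median log2 fold change was 1.06 in DMM mice and 1.60 in naive mice, and 2 of the 12 genes had a negative value in DMM mice (Csf1r at -0.02 and Cx3cr1 at -0.64) and 1 in naive mice (Mertk at -0.11). The 9 skeletal muscle genes summed to 63.7 to 554 CPM in naive mice with vehicle, 1880 to 2880 in naive mice with AP20187, 54.3 to 2290 in DMM mice with vehicle and 70.9 to 196 in DMM mice with AP20187. The DMM vehicle mouse at 2290 CPM was mouse 32, and the next highest of its group was at 396. The libraries of DMM vehicle mouse 64, DMM AP20187 mouse 58 and naive AP20187 mouse 3 stood apart, with the lowest pan-neuronal sums of their groups at 4470, 1840 and 2020 CPM. Mouse 64 also had the highest granulocyte sum of the vehicle mice, 7340 CPM. No gene of the pan-neuronal, granulocyte or macrophage list was at 0 in any library.

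The upstream sequence of 4 members is shown because the results turn on them: Trpv1 and Trpm8 had the largest falls that passed the test, Trpm2 fell under AP20187 in DMM and in naive mice, and Trpv4 was the member with positive values in both. Each is the 250 bases before the annotated start, 5′ to 3′ on the gene's strand, from RefSeq on GRCm38.p6. The windows are chr11:73233899-73234148 (plus strand) for Trpv1, chr1:88306485-88306734 (plus) for Trpm8, chr10:77969873-77970122 (minus) for Trpm2 and chr5:114658422-114658671 (minus) for Trpv4. Capitals mark the core of RUNX sites (TGTGGT), the TATA box (TATAAA), the GC box (GGGCGG) and the core of cyclic AMP response elements (TGACG), each searched on both strands.
Trpv1: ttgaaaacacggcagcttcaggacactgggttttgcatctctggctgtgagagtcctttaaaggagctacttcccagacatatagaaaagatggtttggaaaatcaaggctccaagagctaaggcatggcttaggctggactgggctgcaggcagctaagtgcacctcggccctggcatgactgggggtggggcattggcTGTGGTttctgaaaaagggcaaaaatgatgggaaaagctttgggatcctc
Trpm8: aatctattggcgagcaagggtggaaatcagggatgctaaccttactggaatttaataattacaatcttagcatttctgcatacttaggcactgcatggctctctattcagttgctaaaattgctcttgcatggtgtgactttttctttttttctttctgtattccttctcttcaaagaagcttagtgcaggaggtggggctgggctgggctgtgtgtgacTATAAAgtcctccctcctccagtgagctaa
Trpm2: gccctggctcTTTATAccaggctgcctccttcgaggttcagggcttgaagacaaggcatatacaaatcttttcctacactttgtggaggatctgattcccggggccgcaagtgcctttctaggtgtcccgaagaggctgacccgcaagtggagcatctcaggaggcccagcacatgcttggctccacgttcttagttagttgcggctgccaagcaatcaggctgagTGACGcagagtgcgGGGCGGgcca
Trpv4: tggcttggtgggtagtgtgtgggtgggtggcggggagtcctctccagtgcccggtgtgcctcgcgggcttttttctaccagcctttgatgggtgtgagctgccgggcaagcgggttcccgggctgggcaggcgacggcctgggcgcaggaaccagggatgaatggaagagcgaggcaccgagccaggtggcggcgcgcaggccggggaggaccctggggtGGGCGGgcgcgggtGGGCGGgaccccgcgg

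RefSeq windows were matched for 8 of the 9 members, in 11 windows, and Trpa1 had no entry. The RUNX core stood in the windows of Trpv1, where it began 50 bases before the start, and Trpm3, and in 14.0% of 32851 windows over all genes. RUNX factors are transcription regulators, among them regulators of sensory neuron subtypes. TATAAA began 30 bases before the start of Trpm8, was found on the opposite strand 240 bases before the start of Trpm2, and stood in 12.4% of all windows. Trpv4 had 2 copies of the GC box, which was also found for Trpm2 and Trpc1 and in 32.7% of all windows, and TGACG was found for Trpm2 and Trpc1 and in 17.8%. The Trpv4 window had a GC content of 72.0%, that of Trpv1 50.8% and that of Trpm8 42.8%, against a median of 52.4% over all windows. These matches describe the letters and were tied to no measurement.

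Levels of different genes were compared in FPKM, the deposited value scaled to gene length. In naive mice with vehicle Trpv1 was at 29 ± 5.57 FPKM (SD, n = 5), Trpa1 at 22.1 ± 1.29, Trpv2 at 15.7 ± 2.15 and Trpm8 at 8.86 ± 4.18. Trpc1 followed at 4.17 ± 0.902, Trpm2 at 2.69 ± 0.423, Trpm3 at 2.49 ± 0.458, Trpv4 at 0.795 ± 0.198 and Trpc5 at 0.273 ± 0.121. The capsaicin receptor and the irritant receptor thus led, and Trpc5 was at the foot of the list. The ranges of Trpv1 and Trpa1 overlapped, with Trpv1 above Trpa1 in 4 of 5 mice, and so did those of Trpv2 and Trpm8, Trpm8 and Trpc1, Trpc1 and Trpm2, and Trpm2 and Trpm3. No overlap was seen between Trpa1 and Trpv2, Trpm3 and Trpv4, or Trpv4 and Trpc5. FPKM divides by a long annotated length for some members: the length implied by the count and the FPKM was 25278 bases for Trpm3 and 12880 for Trpm2, against 3798 for Trpv1.

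The order differed between groups. In DMM mice with vehicle it began as in naive mice with vehicle, with Trpv1 at 26.4 ± 10.9 FPKM, Trpa1 at 19.1 ± 8.81 and Trpv2 at 14.4 ± 2.77 (n = 5). With AP20187 Trpa1 stood first, at 9.7 ± 5.78 FPKM in DMM mice (n = 5) and 10.8 ± 6.34 in naive mice (n = 4). Trpv1 came next, at 7.95 ± 5.6 and 9.52 ± 4.8 FPKM, and the ranges of both genes overlapped, with Trpa1 above Trpv1 in 3 of 5 and 2 of 4 mice. Trpv4, eighth in naive mice with vehicle, had a higher mean than Trpm3 in DMM mice with AP20187, at 1.24 ± 0.628 against 1.03 ± 0.481 FPKM, but stood above it in only 2 of 5 mice, with overlapping ranges.

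**Figure D1:**
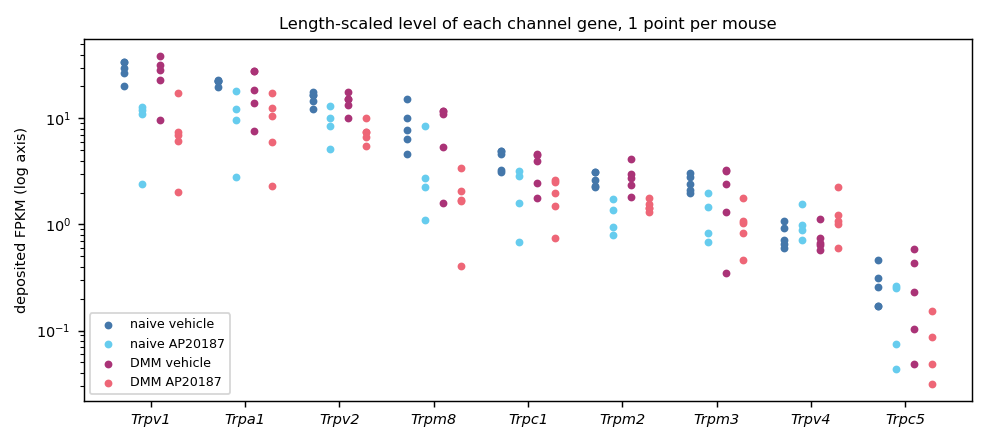
Deposited FPKM (log axis) of each channel gene, ordered by the mean in naive mice with vehicle, with 1 point per mouse and colours for the 4 groups. Trpv1, at 20.4 to 33.7 FPKM in naive mice with vehicle, lies about as high as Trpa1, and Trpc5 stays under 1 FPKM in every mouse (1 mouse at 0 is not drawn).

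In DMM mice, AP20187 went with lower transcript levels of 4 of the 9 channels and higher levels of none when libraries were scaled to all counts, while scaled to pan-neuronal counts none of these 4 was called (2 of them, Trpv1 and Trpm8, when vehicle mouse 64 was left out). That scaling raised the median gene by 1.19 on the log2 scale, which is more than the falls of Trpv2 and Trpm2, and both had positive values there. Trpv1, the heat and capsaicin receptor, fell 3.26-fold, and Trpm8, the cold and menthol receptor, fell 4.37-fold. Trpv2, a heat-gated channel of larger sensory neurons, fell 1.89-fold, and Trpm2, an oxidant-sensitive channel opened by ADP-ribose, fell 1.81-fold. Over all genes tested, 12.4% were called lower and 11.3% higher in this comparison, at an adjusted p of 0.05 (edgeR's quasi-likelihood test, Benjamini-Hochberg over 22778 genes). The median log2 fold change was -0.97 over the 9 members and -0.10 over all genes tested, and 8 of the 9 members had a negative value. In CPM of bulk ganglia, fewer cells of a type, less RNA per cell and added RNA of other cells cannot be told apart.

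Trpv1 (ENSMUSG00000005952, chr11:73125118-73152065 on the plus strand of GRCm39) was at 122, 148, 103, 87.2 and 33.9 CPM in DMM vehicle mice 32, 33, 34, 63 and 64. In DMM AP20187 mice 58 to 62 it was at 7.28, 26, 27.4, 65.2 and 25.8 CPM. Mice 58, 59, 60 and 62 lay below every vehicle mouse, and mouse 61 lay above vehicle mouse 64. The log2 fold change was -1.70 (SE 0.48, 95% interval -2.71 to -0.69) with an adjusted p of 0.0181.

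Trpm8 (ENSMUSG00000036251, chr1:88205383-88316573, plus strand) was at 54.9, 57.5, 54.4, 26.3 and 7.09 CPM in the same DMM vehicle mice. With AP20187 it was at 1.86, 9.97, 7.85, 16.7 and 9.39 CPM in mice 58 to 62. Vehicle mouse 64 fell inside the AP20187 range, and the other vehicle mice lay above it. The log2 fold change was -2.13 (SE 0.61, 95% interval -3.40 to -0.85) with an adjusted p of 0.0189.

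Trpv2 (ENSMUSG00000018507, chr11:62465312-62491341, plus strand) was at 72.5, 81.6, 66.6, 62 and 43.2 CPM in DMM vehicle mice and at 29.3, 25, 33.1, 47 and 38.2 CPM with AP20187. Only AP20187 mouse 61 and vehicle mouse 64 crossed. The log2 fold change was -0.92 (SE 0.22) with an adjusted p of 0.00706. Trpm2 (ENSMUSG00000009292, chr10:77743556-77806397, minus strand) was at 23.9, 35.5, 36.9, 30.1 and 48.4 CPM with vehicle and at 17.1, 18, 19.3, 16.8 and 25.5 CPM with AP20187. Here vehicle mouse 64 was the highest of its group, unlike for the other 3 called members, and AP20187 mouse 62 exceeded vehicle mouse 32. The log2 fold change was -0.85 (SE 0.21) with an adjusted p of 0.00858.

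Among the 5 members that did not pass in DMM mice, Trpa1, the receptor of reactive irritants (ENSMUSG00000032769, chr1:14942872-14989086, minus strand), was at 125, 122, 77.1, 61 and 30.7 CPM with vehicle. It was at 9.52, 45.1, 53.5, 75.3 and 29.3 CPM with AP20187, and mice 58 and 62 lay below every vehicle mouse. Its log2 fold change was -0.97 (SE 0.47, adjusted p 0.138). Trpm3, which opens to noxious heat and to pregnenolone sulfate (ENSMUSG00000052387, chr19:22116410-22972774, plus strand), was at 61.2, 80, 78.1, 32.9 and 8.08 CPM with vehicle and 10.9, 25.6, 26.1, 44.7 and 23.4 CPM with AP20187. No AP20187 mouse lay below vehicle mouse 64, and the log2 fold change was -0.99 (SE 0.45, adjusted p 0.117).

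Trpc1, a canonical subunit that joins other TRPC channels (ENSMUSG00000032839, chr9:95587135-95632411, minus strand), had group means of 28.2 ± 10.7 CPM with vehicle and 15.8 ± 7.15 with AP20187 (SD, n = 5 each) in DMM mice. Its log2 fold change was -0.83 (SE 0.39, adjusted p 0.125), and AP20187 mice 58 and 60 lay below every vehicle mouse. Trpc5 (ENSMUSG00000041710, chrX:143164667-143471176, minus strand) had 0 to 204 counts per library. It was at 1.22, 3.04, 2.15, 0.544 and 0.236 CPM with vehicle and at 0.152, 0, 0.244, 0.794 and 0.51 CPM with AP20187, where the count of 0 in mouse 59 allows up to 0.0439 CPM (3 counts, counting error only). Its log2 fold change was -2.08 (SE 0.82, adjusted p 0.0706), and limma's voom gave -4.15 (adjusted p 0.00243).

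Trpv4, opened by cell swelling and warmth (ENSMUSG00000014158, chr5:114760213-114796482, minus strand), was the member whose value lay above 0. It was at 2.85, 2.46, 2.62, 3.16 and 4.3 CPM in DMM vehicle mice and at 9, 5.1, 4.17, 4.52 and 2.82 CPM in DMM AP20187 mice. Mice 58, 59 and 61 lay above every vehicle mouse. The log2 fold change was 0.73 (SE 0.29, 95% interval 0.12 to 1.35) with an adjusted p of 0.0729.

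**Figure D2:**
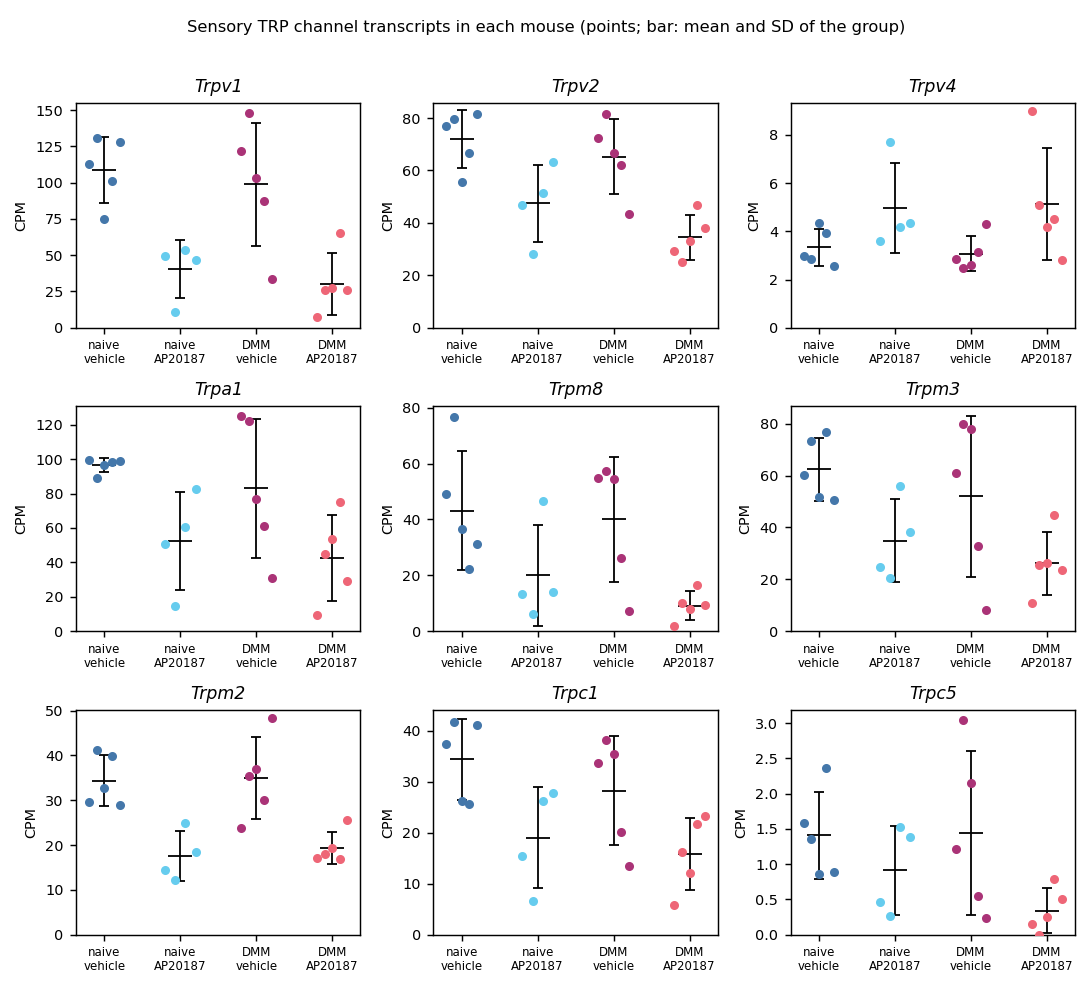
CPM of each channel gene (vertical axis from 0, its own scale in each panel) in every mouse of the 4 groups, with the group mean and SD as bars. Most panels show lower points with AP20187, as for Trpv1 at 7.28 to 65.2 CPM in DMM mice with AP20187 and 33.9 to 148 with vehicle, and Trpv4 shows the other direction.

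The groups were not fully separate for any of the 9 members in DMM mice, while 4.18% of all genes tested had every AP20187 mouse below every vehicle mouse. Without DMM vehicle mouse 64, 8 of 9 members were called, and the share of all genes called in either direction was 34%. Trpv4 at 0.89 (adjusted p 0.033), Trpm3 at -1.27 (0.0104), Trpc1 at -1.01 (0.0496) and Trpc5 at -2.35 (0.0301) joined the called members, and Trpa1 was at -1.18 (0.0526). Without AP20187 mouse 58 the count remained 4, against 14.2% of all genes, with Trpv1 at -1.45 (adjusted p 0.0376) and Trpm8 at -1.86 (0.043). Trpv4 was also called without AP20187 mouse 62, at 0.89 (0.0411), and Trpc5 without AP20187 mouse 61, at -2.67 (0.0335). Trpv1, Trpv2, Trpm8 and Trpm2 were called in each of the 10 fits that left out 1 DMM mouse.

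DMM vehicle mice carry the numbers 32 to 34 and 63 to 64, and DMM AP20187 mice the numbers 58 to 62. Against vehicle mice 32 to 34 alone all 9 members were called, with 36.3% of all genes called in either direction. Against vehicle mice 63 and 64 alone only Trpm2 was called, with 4.73% of all genes, so the count over all genes moved with that of the members. In the second comparison the log2 fold changes were -0.96 for Trpv1 (adjusted p 0.394), -0.58 for Trpv2 (0.223) and -0.82 for Trpm8 (0.586), while Trpm3 was at 0.41. What the numbers stand for is not given in the labels.

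In naive mice 1 of the 9 members was called lower with AP20187, Trpm2, against 2.57% of all genes tested. It was at 29.5, 41.3, 32.7, 39.8 and 28.9 CPM in vehicle mice 1 to 5 and at 14.4, 12.1, 24.9 and 18.4 CPM in AP20187 mice 1, 3, 4 and 5. Every AP20187 mouse lay below every vehicle mouse. The fall was 1.97-fold (log2 -0.98, SE 0.23), and edgeR's test gave an adjusted p of 0.0105. Trpm2 was called in each of the 9 fits that left out 1 naive mouse, with adjusted p from 0.00439 to 0.0457. Scaled to pan-neuronal counts the call was lost, at -0.21 (adjusted p 0.725), and per 1000 pan-neuronal counts Trpm2 was at 4.44 ± 1.56 with vehicle (n = 5) and 3.85 ± 1.63 with AP20187 (n = 4), with overlapping ranges. Skeletal muscle genes moved with the drug in naive mice as well, with 4 of 9 called higher against 8.61% of all genes, and their part in the members' values was not tested.

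Trpv1 in naive mice was at 113, 131, 74.9, 101 and 128 CPM with vehicle and at 49.7, 10.7, 53.9 and 47 CPM with AP20187. Every AP20187 mouse again lay below every vehicle mouse, but the log2 fold change of -1.44 (SE 0.52) missed the threshold with an adjusted p of 0.0774. Trpa1 was at 99.5, 89.3, 96.4, 98.3 and 98.9 CPM with vehicle and at 50.9, 14.5, 60.8 and 82.9 CPM with AP20187. Its vehicle mice lay within a narrow band, and all 4 AP20187 mice lay below it, and its difference was -0.88 on the log2 scale (SE 0.50, adjusted p 0.244). Over all genes tested, 6.15% had every naive AP20187 mouse below every vehicle mouse, and among the members these were Trpv1, Trpa1 and Trpm2.

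Trpv2 was at -0.60 (SE 0.23, adjusted p 0.0958) in naive mice and Trpm8 at -1.11 (SE 0.63, adjusted p 0.25). For Trpm8, AP20187 mouse 4 was at 46.5 CPM and mice 1, 3 and 5 at 13.2, 6.27 and 14, while vehicle mice ran from 22.2 to 76.8. Trpm3 was at -0.84, Trpc1 at -0.86 and Trpc5 at -0.63, with adjusted p of 0.255, 0.181 and 0.634. Trpv4 was again above 0, at 0.57 (SE 0.31, adjusted p 0.221), and AP20187 mouse 3, the one with the lowest pan-neuronal sum, had its highest level at 7.72 CPM against 2.55 to 4.36 in vehicle mice. Without that mouse Trpm2 remained called at -0.85 (adjusted p 0.0454), Trpv1 was at -1.15 (0.216) and Trpv4 at 0.28 (0.659). Without AP20187 mouse 5, Trpv2 was also called, at -0.80 (0.0394).

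Surgery alone was tested in vehicle mice, where no member and no gene was called: 0 of 22778 (0%) by edgeR and 0 by DESeq2, with 377 genes at an unadjusted p under 0.05 and 1 gene called by limma's voom with sample weights. With mice 63 and 64 as the DMM vehicle group, 541 genes (2.21%) were called and no member. The members' log2 fold changes ran from -0.29 for Trpc1 (95% interval -1.09 to 0.52) to 0.03 for Trpc5 (-1.60 to 1.65). None of the 9 had an unadjusted p under 0.05. For Trpv1 the interval was -1.13 to 0.83, and it holds changes of up to that size in either direction. The CV of each of the 9 members was higher in DMM than in naive vehicle mice, from 23.7% against 23% for Trpv4 to 59.6% against 19.4% for Trpm3 and 48.5% against 4.34% for Trpa1, with no test of the spread. The share of all genes with a higher CV in DMM vehicle mice was not computed, so this is not shown to be particular to the members. DMM vehicle mouse 64 had the lowest level of Trpa1 and Trpm3 in its group.

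With AP20187, no member was called between DMM and naive mice by edgeR, none had an unadjusted p under 0.05, and 0.702% of all genes were called. DESeq2 also called 0 members, with 4.87% of all genes called in either direction. With limma's voom 1 was called, Trpv2, with 10.8% of all genes called in either direction, so 1 of 9 is near that share. Trpm8 was at 9.16 ± 5.31 CPM in DMM mice (n = 5) and 20 ± 18 in naive mice (n = 4), a log2 fold change of -1.12 with an interval of -2.42 to 0.17 that holds 0. The difference between the AP20187 effect in DMM and in naive mice passed for no member with edgeR, DESeq2 or voom and for 0.114% of all genes with edgeR, and no member had an unadjusted p under 0.05. It was -1.02 for Trpm8 (interval -2.79 to 0.76), -0.26 for Trpv1 (-1.70 to 1.17) and 0.12 for Trpm2 (-0.51 to 0.76). The count of 4 called members in DMM and 1 in naive mice is therefore not shown to be a difference between them.

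In DMM mice 11 of 15 pan-neuronal genes were called lower with AP20187, against 12.4% of all genes, among them the nuclear protein gene Rbfox3 (-1.51, adjusted p 0.0323) and the tubulin gene Tubb3 (-1.36, 0.0235), and the list's median was -1.26. Genes of sensory neuron types were called lower there too, 6 of 9 that define these neurons (median -1.57), 7 of 9 of non-peptidergic nociceptors, 3 of 4 of C-fibre low threshold mechanoreceptors and 2 of 6 of peptidergic nociceptors. So were 7 of 7 B lineage, 5 of 7 erythroid, 3 of 8 myelinating Schwann cell and 3 of 9 skeletal muscle genes. The counts for large-fibre neurons (1 of 7) and satellite glia (1 of 8) were near the 12.4% of all genes, and 0 of 8 central nervous system genes were called. Runx3 of the large-fibre list was at 0.56 and not called. In naive mice 2.57% of all genes were called lower. Among them were 7 of 7 B lineage genes, 2 of 4 of the low threshold mechanoreceptors, 3 of 8 central nervous system genes and 1 of 8 satellite glia genes. There edgeR called 0 of 9 sensory neuron genes (2 at an unadjusted p under 0.05) and 0 of 7 erythroid genes (1). Granulocyte genes rose, with 11 of 12 called in DMM mice, against 11.3% of all genes, and 12 of 12 in naive mice, against 8.61%, including Mpo, the myeloperoxidase gene, at 3.50 and 3.57. In naive mice edgeR called 0 of 15 pan-neuronal genes, with 2 at an unadjusted p under 0.05 and a median of -0.69. DESeq2 called 1, with 19.1% of all genes called in either direction, and voom called 3, with 19.9%. All 15 had negative values with edgeR, and the share of all genes called lower was not computed for DESeq2 and voom. The part of these lists in the members' changes was not tested, but the members were also expressed per neuronal count.

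Per 1000 pan-neuronal counts, Trpv1 was at 12.1 ± 3.4 in DMM mice with vehicle and 7.83 ± 3.09 with AP20187 (SD, n = 5 each), and at 13.5 ± 2.18 (n = 5) and 7.53 ± 2.12 (n = 4) in naive mice. The naive ranges, 11.6 to 17.1 and 5.29 to 9.48, did not overlap, as for 0.957% of all genes in this direction and on this scale. Fitted with this scaling, Trpv1 did not pass in naive mice (-0.84, SE 0.32, adjusted p 0.0638 in edgeR's test). Trpm8 was at 4.79 ± 2.39 and 2.4 ± 0.863 in DMM mice. Trpv4 went the other way, with 0.448 ± 0.289 in DMM mice with vehicle and 1.85 ± 1.72 with AP20187, where mouse 58 was at 4.88 and the other 4 mice at 1.1 ± 0.374. Trpm2, at 5.1 ± 3.3 and 6.06 ± 2.18, and Trpv2, at 8.44 ± 1.03 and 10.4 ± 3.17, were not lower on this scale in DMM mice.

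Fitted with libraries scaled to the summed pan-neuronal counts, which raised the log2 fold change of the median gene by 1.19 in DMM and 0.92 in naive mice, 1 member was called in DMM mice against 41.1% of all genes. This was Trpv4, at 2.05 (adjusted p 0.0173 in edgeR's test), and the call rested on mouse 58: without it, a fit added after the data were seen, Trpv4 was at 1.29 (0.104) and no member was called, against 16.6% of all genes. Without vehicle mouse 64, another added fit, 3 members were called against 56.5% of all genes: Trpv4 at 2.53 (0.00435), Trpv1 at -0.75 (0.0403) and Trpm8 at -1.22 (0.0223). With all mice Trpv1 was at -0.62 (0.0922) and Trpm8 at -1.0 (0.0805). Trpv2, Trpa1, Trpm3, Trpm2 and Trpc1 changed sign, to values from 0.16 to 0.31. In naive mice 0 members were called against 19.2% of all genes. Without AP20187 mouse 3, a further added fit, 0 members were called against 0.747% of all genes. With the median ratio of the same genes, an alternative added after the data were seen, Trpv4 alone was called in DMM mice, at 2.31 (0.0232), against 41.8% of all genes.

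**Figure D3:**
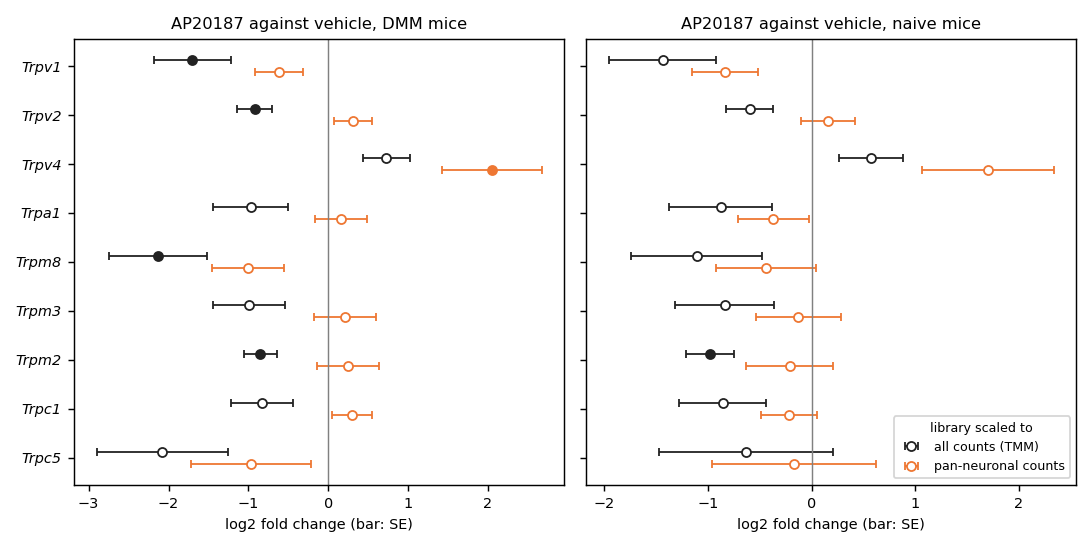
Log2 fold change with its SE for AP20187 against vehicle in DMM mice (left) and naive mice (right), with libraries scaled to all counts (black) or to pan-neuronal counts (orange); filled points passed an adjusted p of 0.05. On the pan-neuronal scale the points lie further right, and Trpv4 at 2.05 is the filled point in DMM mice.

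Within groups 7 of the members varied together across mice, with r of 0.50 to 0.94 between them, and Trpv4 and Trpm2 did not. Pearson's r of log2 CPM after subtracting group means, over 19 libraries, was 0.94 for Trpv1 with Trpa1, 0.89 for Trpv1 with Trpc1 and 0.88 for Trpm8 with Trpm3. Trpv4 had r of -0.22 to -0.85 with the other members, and Trpm2 of -0.22 to 0.25. These values describe libraries that share their total, so a large change of one cell type moves all others, and they carry no test.

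**Figure D4:**
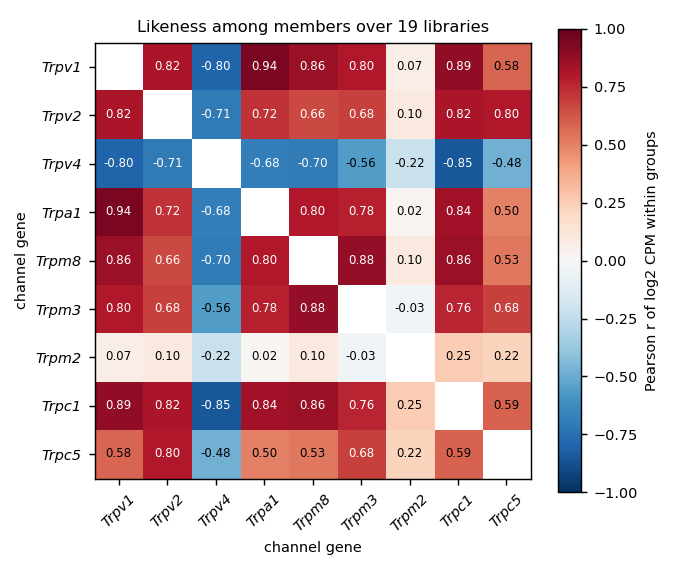
Pearson's r of log2 CPM between members over 19 libraries, with group means subtracted; red is positive and blue negative. Trpv1, Trpa1, Trpm8, Trpm3 and Trpc1 form a red block with r of 0.76 to 0.94, Trpv4 is blue against every other member and Trpm2 is pale.

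The pan-neuronal sum followed most members in the same way. Within groups its r was 0.92 with Trpv1 (Spearman's rho 0.85; r 0.85 without the 2 libraries farthest out), 0.91 with Trpc1 and 0.88 with Trpv2. It was 0.09 with Trpm2 (rho 0.01; r -0.31 without the 2 libraries farthest out) and -0.81 with Trpv4 (rho -0.58; r -0.65 without those 2 libraries). Trpv4 had r of 0.62 with the erythroid sum, 0.61 with the macrophage sum, 0.59 with the satellite glia sum, 0.51 with the vascular sum, 0.41 with the granulocyte sum and 0.29 with the myelinating Schwann cell sum. Trpm2 had r of 0.31 with the granulocyte sum and 0.22 with the macrophage sum, which became -0.21 and -0.27 without the 2 farthest libraries.

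**Figure D5:**
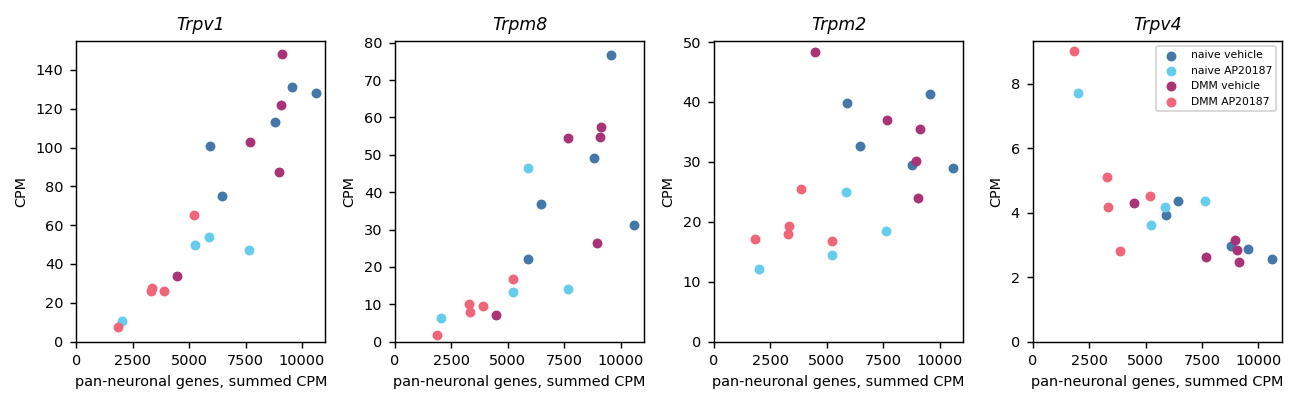
CPM of Trpv1, Trpm8, Trpm2 and Trpv4 against the summed CPM of 15 pan-neuronal genes, 1 point per mouse, both axes from 0. Trpv1 rises with the neuronal sum (r 0.92 within groups), Trpm2 is low with AP20187 at low and high sums, and Trpv4 is highest in the 2 mice with the lowest sums.

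The genes most like each member were taken from 12328 eligible genes by the same r over 19 libraries. For Trpv1 they were Camk1g, Samd14 and Cyp4x1 (each 0.98), and for Trpa1 Ppef1 (0.98), Adcyap1, which encodes the neuropeptide PACAP, and Rab9b (both 0.97). For Trpv2 they were Hsph1, Pld3 and Rangap1 (each 0.97), for Trpm8 Ccp110, Gpam and Trappc3l (each 0.94), and for Trpm3 Tmod2, Klf8 (both 0.96) and Prkar2a (0.95). Trpc1 was closest to Acsl6, Negr1 (both 0.99) and Nrg1 (0.98), and Trpc5 to Nudcd3 (0.90), Tmem169 (0.88) and Itpkb (0.87). For Trpv4 they were Edn3, which encodes endothelin 3 (0.92), Gucy1a1, a subunit of the nitric oxide receptor (0.91), and Bace2 (0.90). For Trpm2 they were Adnp (0.89), Epb41 (0.82) and Crebbp (0.74).

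Of the 19 other TRP genes, 17 were tested, and with AP20187 in DMM mice 5 were called lower and 2 higher, against 12.4% and 11.3% of all genes, so the count of higher genes is near the share over all genes. Among the lower ones were the canonical channels Trpc4 (-1.56, adjusted p 0.0392), Trpc6 (-1.16, 0.0138) and Trpc7 (-1.81, 0.0405) and the lysosomal channel gene Mcoln1 (-0.57, 0.0335). Trpc6 went from 22.9 ± 8.54 to 10.3 ± 3.21 CPM (SD, n = 5 each). The higher ones were Mcoln2, a lysosomal channel gene of leukocytes (1.38, 0.0292), and Trpm7, a channel with a kinase domain (0.40, 0.0436). In naive mice 2 of 17 were called, both lower: Trpc6 (-1.32, 0.018) and the calcium-activated channel Trpm4 (-0.80, 0.00914), against 2.57% of all genes. The medians of this list were -0.47 in DMM and -0.43 in naive mice, against -0.97 and -0.86 for the 9 members and -0.10 and -0.07 for all genes.

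Genes known to act on sensory TRP channels were a further list of 20, of which 19 were tested. In DMM mice 8 were called lower with AP20187, against 12.4% of all genes, and none higher, with a median of -0.81. They held Pirt, a membrane protein that binds Trpv1 and Trpm8 (-1.58, adjusted p 0.0427), and the kinase genes Prkce (-1.56, 0.0325) and Prkca (-1.40, 0.0241). Also among them were Plcb3, a phospholipase C (-1.10, 0.00868), Gnaq, which encodes a G protein subunit (-1.08, 0.0374), Cdk5 (-0.65, 0.0229) and Gabbr1 (-1.50, 0.0271). In naive mice 1 of 19 was called, near the 2.57% of all genes called lower. This was Akap5, the scaffold that brings kinases to Trpv1 (-1.31, 0.0424), and the list's median was -0.60.

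Some members share their span with other annotated genes. Trpc5 overlaps Trpc5os on the opposite strand, Trpm3 overlaps Nsa2-ps1 on its own strand and C330002G04Rik and Gm27151 on the opposite strand, and Trpm2 overlaps Gm22871 and Gm22394 on its own strand. Libraries were stranded by the kit named in the labels, but whether counting used the strand is not given in the sources used here, so reads of such pairs could have been assigned to either gene.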

How the data were processed

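Raw counts per gene of 19 libraries were deposited by the authors, who also deposited FPKM (length-scaled and depth-scaled values) beside the counts of 36682 annotated genes; the 9 members had equal counts in both. Per the submitters' processing notes, cutadapt, HISAT2 and StringTie were used with GRCm39, and how FPKM was derived is not given in the sources used here. Libraries were grouped by the labels. Counts were fitted with edgeR 4.0.16 (R 4.3.3) in 1 model of the 4 groups, with TMM scaling, filterByExpr (minimum count 10), 15 residual degrees of freedom and the two-sided quasi-likelihood F test, with Benjamini-Hochberg adjustment over all 22778 genes tested and a threshold of 0.05. Alternatives were DESeq2 1.42.0, limma 3.58.1 (voom with sample weights, and log2(FPKM + 1)), other scalings, no filter, only the groups compared, subsets by mouse number, a replicate block and leaving out each mouse. The fit was tested on simulated data. Library totals of 60984830 to 74691396 counts set the precision; intervals and floors cover what the model or counting error holds.

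The members, the gene lists and the tests were chosen with earlier results of these data known. Named genes were all members, every other TRP gene that passed (some genes are not reported here), the 3 genes most like each member (Pearson's r of log2 CPM, prior count 2, group means subtracted, mean of at least 5 CPM, no predicted-gene, Rik or clone name), and of the other lists up to 4 genes; further modulators that passed in DMM mice were named after their values were seen. Rbfox3, Tubb3 and Mpo were also named after their values were seen. No 2 libraries of the same group agreed within sampling noise, with a smallest chi-square per degree of freedom of 51.7, and pairs across groups were not compared. Promoter windows came from RefSeq on GRCm38.p6 and were not set against the GRCm39 positions.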

Additional observations from a re-analysis of the deposited data

Results flagged for a closer look

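In naive AP20187 mouse 3, Trpv1 was at 10.7 CPM, far below the 47 to 53.9 CPM of the other 3 mice of its group, with a gap of 0.84 of the group's range. The same library had the lowest pan-neuronal sum of its group, 2020 CPM.

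In DMM AP20187 mouse 62, Trpm2 was at 25.5 CPM, above the 16.8 to 19.3 CPM of the other 4 mice of its group, with a gap of 0.717 of the range. Chance singles out about 1 in 20 groups, and 36 combinations of a member and a group were examined.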

How the results depend on the processing

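For AP20187 against vehicle in DMM mice, 4 to 6 members were called with DESeq2, other size factors, no scaling factors, no filter on low counts, log2(FPKM + 1) or only the groups compared, and the 2 that DESeq2 added were Trpv4 (0.77, adjusted p 0.0375) and Trpc5 (-2.08, 0.0259). The share of all genes called was 11.3% to 30.5% in these fits. All 9 were called with voom sample weights (46.9% of all genes) and against vehicle mice 32 to 34 only (36.3%), and 1 against vehicle mice 63 and 64 only (4.73%), where Trpm3 reversed to 0.41. Leaving out 1 mouse gave 4 to 8, with 14.2% to 34% of all genes. Scaled to summed pan-neuronal counts 1 member was called, and values reversed for Trpv2 (0.31), Trpa1 (0.16), Trpm3 (0.21), Trpm2 (0.25) and Trpc1 (0.30). Without AP20187 mouse 58 as well, 0 were called, and these 5 were at 0.11, 0.34, 0.28, 0.04 and 0.39; without vehicle mouse 64, 3 were called, with Trpv2 at 0.36, Trpa1 at 0.05, Trpm2 at 0.72 and Trpc1 at 0.25. With the pan-neuronal median of ratios, also chosen after seeing the data, 1 was called, and the reversed values were 0.57, 0.40, 0.53, 0.43 and 0.53 in the same order. In naive mice 3 were called with DESeq2 (19.1% of all genes), with voom (19.9%) and with log2(FPKM + 1) (16.7%), and 2 with only the groups compared (13%). The counts were 0 with both pan-neuronal scalings (19.2% and 11.7% of all genes), where Trpv2 reversed to 0.16 and 0.33, and Trpm3 to 0.02 with the second. With the first scaling and without AP20187 mouse 3 the count was 0, with 0.747% of all genes. Leaving out 1 mouse gave 1 to 2, with 4.24% to 14.7% of all genes. For these, the cause was not tested.

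Naive groups share mouse numbers 1, 3, 4 and 5. Same-numbered mice deviated with correlations of 0.02, 0.30, -0.08 and 0.18, and the numbers were not taken as pairs. Among these numbers, AP20187 mice 3 and 5 were most like the vehicle mouse of the same number, and mice 1 and 4 were not. So few mice cannot settle whether the numbers mark pairs. With the mouse number as a replicate block 2 members were called in naive mice, Trpv1 at -1.57 (edgeR, adjusted p 0.0325) and Trpm2, with 8.66% of all genes.

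In the contrasts of DMM with naive mice and the interaction, 87 of 612 member values under alternatives had another sign than the main value, and 1 passed the threshold: with voom sample weights 1 member, Trpv2 at -0.65 (adjusted p 0.0386), was called between DMM and naive mice with AP20187. Among the values named above, surgery in vehicle mice gave Trpc5 at -0.12 and -0.04 with the 2 pan-neuronal scalings, 0 with log2(FPKM + 1) and -1.86 against mice 63 and 64 only, and -0.44 to 0.30 without 1 mouse. Trpv1 was at 0.18 and Trpc1 at 0.05 with mice 32 to 34 only, and Trpv1 at -0.34 to 0.07 without 1 mouse. The interaction of Trpv1 was 0.21 and 0.30 with the pan-neuronal scalings and 0.48 with mice 63 and 64 only, that of Trpm8 0.29 with those mice, and that of Trpm2 -0.04 with voom, -0.06 with those mice and -0.02 to 0.35 without 1 mouse. The log2 ratio of Trpv1 to Trpc5 in naive vehicle mice was 6.35 from CPM, 6.81 from FPKM and 4.54 from FPKM + 1. Depth limits Trpc5, at 0 to 204 counts per library.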
